A study of Oryza sativa Japonica Group with 10 samples.

Results

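A set of 125 rice genes was low or undetected in every library of the parent ZH11 and expressed in the plants overexpressing OsJAZ1. The members were picked by their levels: the FPKM of a gene had to be under 0.5 in each of the 5 ZH11 libraries, with a mean of at least 1 both in the OsJAZ1-OE normal and in the OsJAZ1-OE drought libraries. FPKM, the unit of level used throughout, is the number of fragments divided by the length of the transcript and by the library size, summed here over the transcripts of a gene. The 125 genes are 0.224% of the 55689 gene IDs measured, and 0.619% of the 20195 that reached a mean of 1 FPKM in both OsJAZ1-OE groups. Since the levels of ZH11 and OsJAZ1-OE chose the members, the difference between the genotypes is given for them as a description, with no test.

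Shoots at the 4-leaf stage were used, of ZH11, a japonica cultivar, and of OsJAZ1-OE, which is ZH11 transformed with the OsJAZ1 coding sequence behind the promoter of the drought-inducible gene OsLEA3-1. There were 3 ZH11 normal, 2 ZH11 drought, 3 OsJAZ1-OE normal and 2 OsJAZ1-OE drought libraries, and drought meant a soil water content of 10 to 15%. By the sample labels all OsJAZ1-OE libraries are of 1 transgenic line, OE-1, so what the overexpression of OsJAZ1 does and what is peculiar to that line cannot be told apart in any value below. In bulk shoots, a change in how many cells express a gene and a change in the RNA per cell cannot be told apart either.

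JAZ proteins are repressors of jasmonate signaling. They hold back MYC-type transcription factors until the active hormone, jasmonoyl-isoleucine, joins them to a COI receptor and marks them for breakdown. Jasmonate and abscisic acid both take part in the responses of rice to drought, though the study calls the crosstalk between them ambiguous. A line with more of a JAZ repressor is here compared with its parent both watered and dry. OsJAZ1 itself (LOC_Os04g55920) was at 110.2 to 147 FPKM in the ZH11 libraries and at 1177 to 1388 FPKM in the OsJAZ1-OE libraries, as labelled. The log2 difference between OsJAZ1-OE and ZH11 was 3.46 (SE 0.06, adjusted p = 9.4e-11, edgeR quasi-likelihood test) in watered plants and 3.15 (SE 0.08, adjusted p = 1.7e-09, same test) under drought. Its change with drought within OsJAZ1-OE was -0.06 on the log2 scale (SE 0.07, adjusted p = 0.51, same test).

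The libraries were alike in depth, with totals of 32396154 to 34027909 estimated fragments. The 5 shoot genes fixed as markers (2 Rubisco small subunits, Rubisco activase, an Lhcb antenna protein and PsaH) were at 139 to 3113 FPKM in all 10 libraries. The root marker RCc3 (LOC_Os02g44310) stayed at 0 to 0.654 FPKM and a seed glutelin gene (LOC_Os01g55690) at 0.215 to 0.408 FPKM. Lsi1 (LOC_Os02g51110), a silicon transporter known from roots, was at 4.52 to 11.6 FPKM in ZH11 and at 4.85 to 8.41 FPKM in OsJAZ1-OE. Under drought its 2 ZH11 libraries (10.1 and 11.6 FPKM) were above its 2 OsJAZ1-OE libraries (7.02 and 8.41 FPKM). Its part in the values below was not tested.

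As a whole the set was worth 6.72 to 8.73 FPKM in a ZH11 library and 920.4 to 1097 FPKM in an OsJAZ1-OE library, added over its genes. The lowest OsJAZ1-OE library was above the highest ZH11 library for 118 of the 125 genes. Of the 20195 genes that reached 1 FPKM in both OsJAZ1-OE groups, 483 lay this way with no overlap between the genotypes (2.39%), and 308 lay the other way (1.53%). The 118 are among the 483. The floor of 1 FPKM was set on OsJAZ1-OE only. Genes under it there could not enter the 308, while genes low in ZH11 could enter the 483, so the directions are not compared alike. The same 118 genes were at 0.5 FPKM or more in every OsJAZ1-OE library, and 99 were at 1 FPKM or more in each. In ZH11, 28 genes had no fragment in any library and 38 had some in all 5. At the median a gene held 683 fragments summed over the 5 OsJAZ1-OE libraries and 4.24 over the 5 ZH11 libraries. For the 71 genes with more than 3 fragments in ZH11, the ratio of mean CPM (counts scaled to the library total, OsJAZ1-OE over ZH11) had a median of 111. It ran from 3.14 for LOC_Os02g30540 to 1429 for LOC_Os05g45160.

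**Figure D1:**
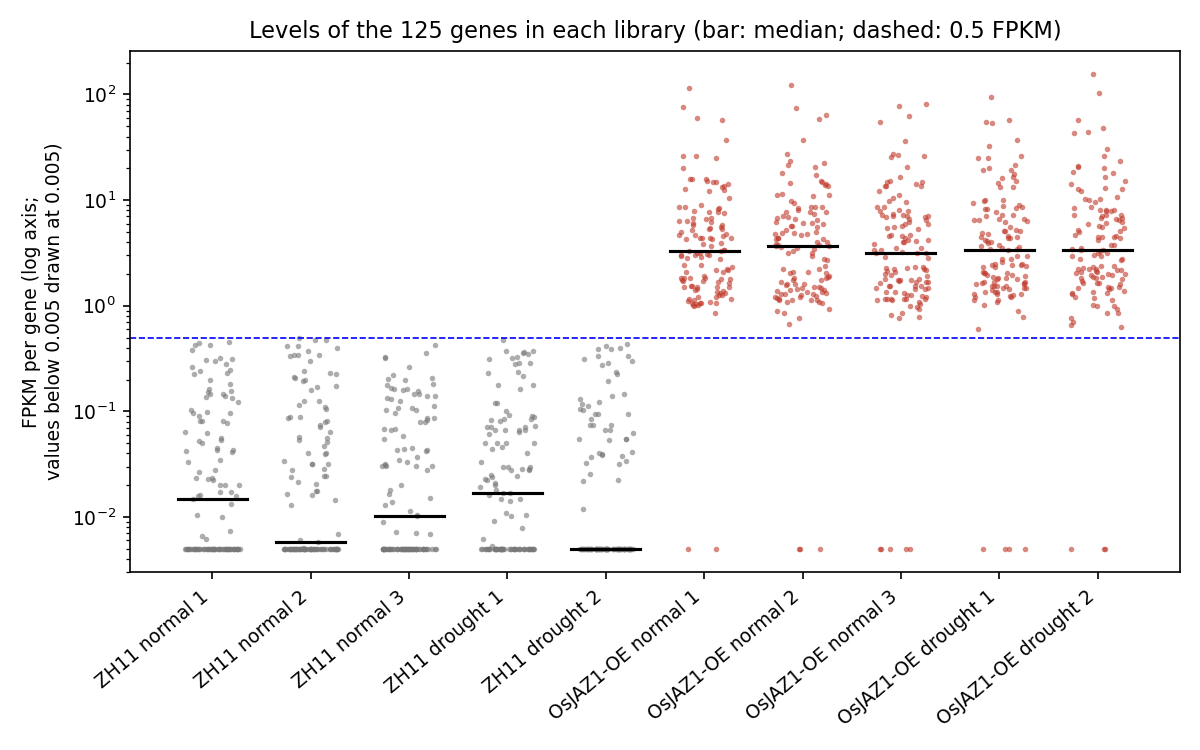
FPKM of each of the 125 genes (1 point a gene, log axis) in each of the 10 libraries, with the median as a bar and the limit of 0.5 FPKM dashed. All points of the 5 ZH11 libraries lie under the limit, as the rule requires, and 118 genes lie above it in all 5 OsJAZ1-OE libraries; the points at the floor on the right belong to the other 7 genes.

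The remaining 7 genes rested on very few fragments. LOC_Os01g08590, LOC_Os01g61840, LOC_Os05g05610, LOC_Os05g24870, LOC_Os06g16620, LOC_Os09g08490 and LOC_Os10g26410 had 2.01 to 9.65 fragments in all over the OsJAZ1-OE libraries, were at 0 in at least 1 of these, and were at 0 in ZH11. Of the 125 genes, 15 had no transcript of 500 bases or more (12%, against 1.81% of the genes at 1 FPKM in both OsJAZ1-OE groups). These 7 were named after their values were seen. With 3 fragments over the 5 ZH11 libraries as the most that a count of 0 allows, the mean CPM was at least 1.08-fold to at least 3.30-fold higher in OsJAZ1-OE for 4 of them. For LOC_Os01g08590, LOC_Os01g61840 and LOC_Os09g08490 no such limit can be given, since the OsJAZ1-OE fragments are themselves under 3. These limits leave out the counting error of the few OsJAZ1-OE fragments.

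Most of the genes were weakly expressed in OsJAZ1-OE. The mean over its 5 libraries had a median of 3.26 FPKM over the set (quartiles 1.70 and 7.64), against a median of 12.1 FPKM for all genes that reached 1 FPKM in both groups. A mean of at least 5 FPKM was reached by 47 genes, of at least 10 by 24, of at least 20 by 10 and of at least 50 by 4. Short transcripts reach a high FPKM on few fragments. LOC_Os08g25040, of 282 bases and named after its values were seen, had a mean of 11.7 FPKM on 26.6 fragments.

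The highest was LOC_Os09g09210. Its levels were 114, 123 and 77.0 FPKM in the OsJAZ1-OE normal libraries, 55.3 and 155 FPKM in the OsJAZ1-OE drought libraries, and 0 to 0.243 FPKM in ZH11. The OsJAZ1-OE drought libraries were the lowest and the highest of the 5, so the groups overlapped. LOC_Os03g43100 was next, with 76.8, 74.4 and 80.9 FPKM under normal conditions, 95.1 and 104 FPKM under drought, and at most 0.229 FPKM in ZH11. Here both drought libraries were above the 3 normal ones.

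LOC_Os03g18779 was at 62.2 ± 2.04 FPKM (SD, n = 3) in OsJAZ1-OE normal and 55.2 ± 2.19 FPKM (SD, n = 2) in OsJAZ1-OE drought, and its highest ZH11 library was at 0.197 FPKM. LOC_Os02g07654 was at 56.7 ± 2.18 FPKM (SD, n = 3) and 52.7 ± 6.49 FPKM (SD, n = 2) in the same groups, with 0.102 to 0.281 FPKM in ZH11. LOC_Os07g05840 was at 36.8 ± 0.248 FPKM (SD, n = 3) and 40.7 ± 4.64 FPKM (SD, n = 2). It was also the member closest to the ZH11 limit, with 0.490 FPKM in ZH11 normal replicate 2, and it held 28485 fragments over OsJAZ1-OE against 224 over ZH11. Within each OsJAZ1-OE group these 3 genes varied by no more than 6.49 FPKM (SD).

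LOC_Os10g30240 was listed at 26.2, 27.4 and 27.1 FPKM in OsJAZ1-OE normal and at 25.2 and 26.0 FPKM in OsJAZ1-OE drought, and at 0 to 0.333 FPKM in ZH11, with 0 in 2 of its libraries. LOC_Os02g50410 was at 22.5 to 26.0 FPKM under normal conditions and at 26.3 and 30.5 FPKM under drought. Of its FPKM in OsJAZ1-OE 85.3% came from a transcript of 279 bases, while its longest has 1937 bases. Oryza_sativa_newGene_1418, a new gene that is not among the MSU rice loci, was at 23.4 to 26.5 FPKM and at 24.8 and 23.7 FPKM. For LOC_Os10g30240 and the new gene the 5 OsJAZ1-OE libraries lay within about 3 FPKM of each other.

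LOC_Os04g43090 was the highest of the 28 genes without a fragment in ZH11. It was at 14.8, 13.6 and 25.9 FPKM in OsJAZ1-OE normal and at 32.5 and 18.4 FPKM in OsJAZ1-OE drought, so that its groups overlapped. By the same limit of 3 fragments over the 5 ZH11 libraries, its mean CPM was at least 256.7-fold higher in OsJAZ1-OE. Such limits cover counting error only. Oryza_sativa_newGene_1908 was the steadiest gene of the set, at 20.2 to 21.4 FPKM over the 5 OsJAZ1-OE libraries (CV 2.65%). LOC_Os05g45170 (15.9 to 20.7 FPKM) and LOC_Os08g14195 (15.2 to 20.1 FPKM) completed the 12 highest.

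**Figure D2:**
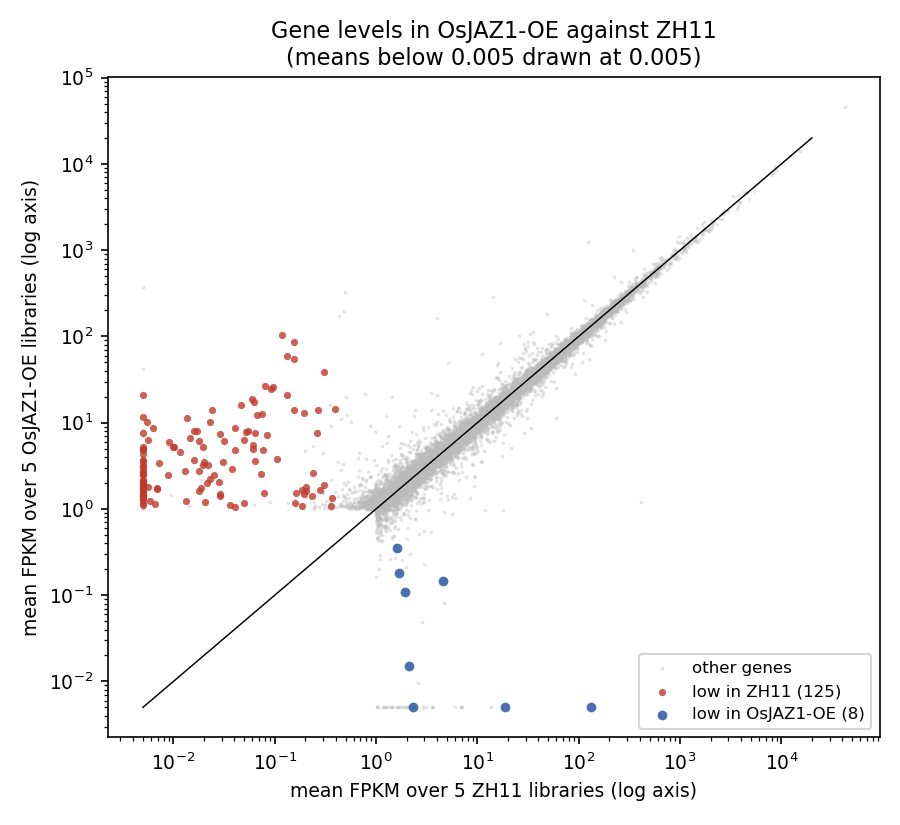
Mean FPKM over the 5 OsJAZ1-OE libraries against the mean over the 5 ZH11 libraries, both on log axes, for every gene with a mean of at least 1 FPKM in either genotype. The 125 genes picked for low ZH11 levels (red) spread up to 104.7 FPKM on the vertical axis, and the 8 picked by the swapped rule (blue) are few.

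None of the sources used here gives a function for these genes. LOC_Os07g42560 carries the label expressed protein, which names no function. By type of ID, 97 were MSU rice loci and 28 were new genes, which the deposited tables add to the MSU set. New genes made up 22.4% of the set, against 2.67% of the genes at 1 FPKM in both OsJAZ1-OE groups and 1.82% of all gene IDs. The new genes of the set had a median of 4.05 FPKM in OsJAZ1-OE and the MSU loci one of 2.91 FPKM.

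The genes were also simpler and shorter than expressed genes at large. The longest transcript had a median of 1266 bases, against 1980 bases over the genes at 1 FPKM in both OsJAZ1-OE groups. A single transcript was listed for 65 of the 125 genes (52.0%, against 36.1%). In the 60 with several, the transcript with the highest share took 73.8% of the FPKM at the median and at least 90% in 14. It was the same transcript in all 5 OsJAZ1-OE libraries for 42 of the 60. LOC_Os03g43100 had 89.2% of its FPKM in 1 of 2 transcripts, and LOC_Os07g05840 had 41.2% in the leading 1 of 7.

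The spread among the 5 OsJAZ1-OE libraries was moderate. The coefficient of variation had a median of 19.2% over the set (2.65 to 179%), against 13.1% over all genes at 1 FPKM in both groups. It was under 20% in 69 genes and over 50% in 12, and 9 of those 12 had fewer than 50 fragments. The widest was LOC_Os06g03650, singled out after its values were seen, with 284 fragments in all. It was at 43.1 FPKM in OsJAZ1-OE drought replicate 2 and at 0.818 to 3.98 FPKM in the other 4 libraries, so its drought mean of 22.7 FPKM rests on 1 library. Its fragments did not follow: they numbered 74.5, 36.7 and 59.4 in OsJAZ1-OE normal and 67.9 and 45.8 in OsJAZ1-OE drought, a log2 change of 0.01 (SE 0.35, adjusted p = 0.98, edgeR). Of its transcripts of 243 and 1905 bases, the shorter took from almost none to almost all of the FPKM of an OsJAZ1-OE library.

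The rule was then turned round, asking for genes under 0.5 FPKM in each of the 5 OsJAZ1-OE libraries with a mean of at least 1 in ZH11 normal and in ZH11 drought. With equal numbers of libraries on both sides it gave 8 genes, against 125. Several of the 8 rested on scattered fragments. LOC_Os12g11980 was at 298, 211 and 152 FPKM in 3 ZH11 libraries and at or near 0 in the other 2, on 35.1 fragments in all. LOC_Os04g29080 was at 31.0 and 63.4 FPKM in 2 libraries and at 0 in 3, on 3.43 fragments. LOC_Os05g24510 (0.114 to 14.4 FPKM) and LOC_Os11g15530 (0 to 6.02 FPKM) were as uneven. The 4 that were at 0.5 FPKM or more in every ZH11 library were LOC_Os01g64330, LOC_Os01g64340, LOC_Os02g16270 and LOC_Os09g34950, where 118 genes of the OsJAZ1-OE set met the same demand. The best supported was LOC_Os02g16270, at 1.46 to 2.65 FPKM in ZH11 and at 0.00769 to 0.0273 FPKM in OsJAZ1-OE.

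The counts on the sides were also taken without the limit of 0.5 FPKM. Genes were counted whose libraries did not overlap between the genotypes in either condition, with a mean of at least 1 FPKM on the higher side and at least a given fold between the means in both conditions. At 2-fold, 218 genes were higher in OsJAZ1-OE (0.391% of all gene IDs, 118 of them members) and 22 were higher in ZH11 (0.0395%). At 8-fold the counts were 126 and 4, and at 64-fold they were 90 and 1, with 87 of the 90 being members. These counts use the values that chose the members and are a description of the 10 libraries.

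**Figure D3:**
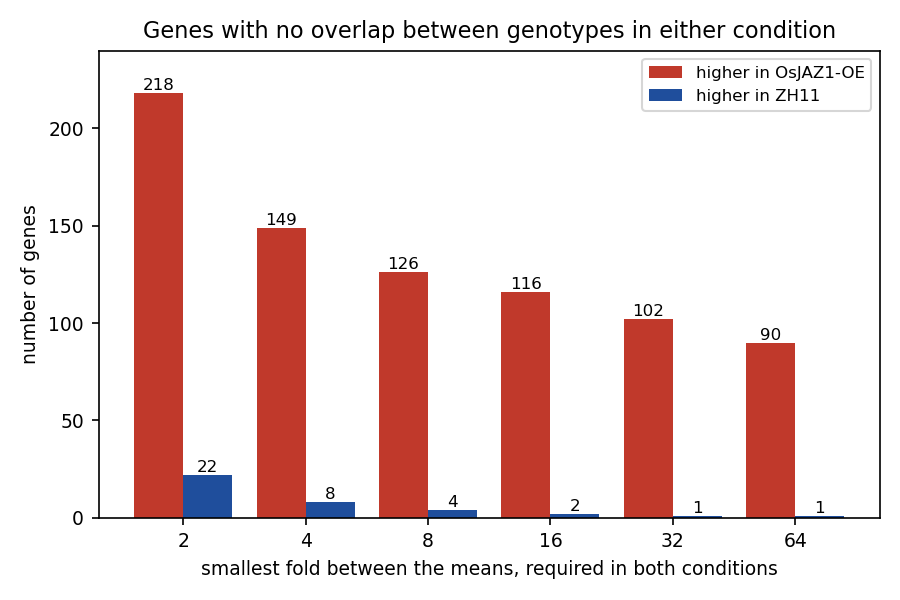
Number of genes whose libraries did not overlap between genotypes in either condition, by the smallest fold required in both, for genes higher in OsJAZ1-OE (red) and higher in ZH11 (blue). The counts go from 218 against 22 at 2-fold to 90 against 1 at 64-fold.

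At the edge of the rule the genes ran on without a gap. LOC_Os08g04600, LOC_Os02g30540 and LOC_Os12g26470 were just inside, with 1.03 FPKM each as the lower of their 2 OsJAZ1-OE group means. LOC_Os05g07830 (0.997 FPKM under drought), LOC_Os02g06310 (0.964 FPKM under normal conditions) and LOC_Os12g16300 (0.961 FPKM under normal conditions) were just outside, with at most 0.00686 FPKM in any ZH11 library. On the ZH11 side LOC_Os07g05840, LOC_Os12g32390 and LOC_Os07g11150 were inside with highest libraries of 0.490, 0.478 and 0.475 FPKM, and LOC_Os08g07380, LOC_Os03g02230 and LOC_Os07g10850 were left out at 0.501, 0.514 and 0.519 FPKM. The last of these was at 4.47 and 4.38 FPKM in OsJAZ1-OE normal and drought, so the set leaves out neighbours of the same kind.

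Few of the genes passed the test for a change with drought in OsJAZ1-OE. The rule asks for expression in both of its groups but uses no difference between them, so this comparison was tested. Its floor, a mean of 1 FPKM in both groups, does limit how far a weak gene can change and stay in the set. Of the 125 genes, 111 had enough counts to be tested. The other 14 had 2.01 to 33.8 fragments over OsJAZ1-OE. Calls needed an adjusted p under 0.05 in edgeR's quasi-likelihood test, taken over all 24850 genes tested, and a log2 change of 1 or more in either direction. By this measure 1 gene rose and 1 fell, which is 1.80% of the 111. Of all genes tested 11.0% were called (4.36% up, 6.62% down). Of the 20062 tested genes that reached 1 FPKM in both OsJAZ1-OE groups, which is the demand the set had to meet, 7.85% were called. At OsJAZ1-OE means of 1 to 2 FPKM, 0 of 37 genes of the set were called, against 3.34% of 1379 others. At 2 to 5 FPKM it was 3.57% of 28 genes, against 10.5% of 3592 others.

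The gene that fell was LOC_Os07g42560, labelled expressed protein, on chromosome 7 at 25465033 to 25468006. Its levels were 2.90, 4.02 and 2.85 FPKM in OsJAZ1-OE normal and 1.65 and 1.44 FPKM in OsJAZ1-OE drought, and the groups did not overlap. It fell by 1.12 on the log2 scale (SE 0.25, adjusted p = 0.0044, edgeR), but limma on log2 FPKM put the change at -1.02 with an adjusted p of 0.079, the highest over the alternatives, which went down to 2.1e-04. The gene that rose was Oryza_sativa_newGene_2035, on chromosome 9 at 12876610 to 12878059, from 3.69, 4.68 and 4.60 FPKM to 7.70 and 10.3 FPKM, again with no overlap. Its log2 fold change was 1.06 (SE 0.25, adjusted p = 0.0059, edgeR). This call rested on single libraries: without OsJAZ1-OE drought replicate 2 the change was 0.83 (adjusted p = 0.086, the highest of the alternatives, whose lowest was 4.7e-04), and without OsJAZ1-OE normal replicate 1 it was 0.97, under the fold limit.

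On adjusted p alone, 3 of the 111 genes rose and 5 fell (7.21%), against 39.0% of all genes tested and 41.4% of those at 1 FPKM in both OsJAZ1-OE groups. The share of other genes depended on level. It was 14.4% at 1 to 2 FPKM, 33.6% at 2 to 5 FPKM and 51.3% at 20 FPKM or more. In the set it was 0 of 37, 3.57% of 28 and 10% of 10 genes in these bands. The set came closer to the other genes in the bands between. At 5 to 10 FPKM it was 3 of 23 genes of the set, against 38.3% of the others. At 10 to 20 FPKM it was 3 of 13 genes, against 44.4%. LOC_Os03g43100 rose by a log2 fold change of 0.40 (SE 0.09, adjusted p = 0.0064, edgeR) and LOC_Os08g14195 by 0.50 (SE 0.14, adjusted p = 0.016, edgeR). In both, each drought library was above each normal library. LOC_Os08g33550 changed by -0.21 (SE 0.07, adjusted p = 0.049, edgeR). The others that fell, named after their values were seen, were LOC_Os02g52730 (-0.75), Oryza_sativa_newGene_1528 (-0.85) and LOC_Os06g16040 (-0.49).

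The median log2 change with drought was 0.0062 over the 111 genes and 5.7e-04 over all genes tested. The mean under drought was within 2-fold of the mean under normal conditions for 116 of the 125 and further apart for 9. Of the 20195 genes at 1 FPKM in both groups, 1759 (8.71%) were more than 2-fold apart. The share in the set was close to this, so this measure does not set it apart. Of the 9 genes of the set more than 2-fold apart in FPKM, 6 had enough counts to be tested. Among these, 3 also had a log2 change of at least 1 in size from the counts. For 78 of the 111 (70.3%) the 95% interval of the log2 change lay inside -1 to 1 and for 33 it reached further. LOC_Os02g39500, named after its values were seen, had the largest estimate, 1.72 on the log2 scale (95% interval 0.22 to 3.22), with an adjusted p of 0.070 in edgeR's test.

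Standard errors in the set were larger than those of other genes at the same level, and this limits the contrast with the background. Between 1 and 2 FPKM the median standard error was 0.35 over 37 genes of the set and 0.21 over 1379 other genes. At 20 FPKM or more it was 0.16 over 10 genes and 0.08 over 6975 others. The median size of the log2 change at 1 to 2 FPKM was 0.23 in the set and 0.26 in the others, and at 20 FPKM or more it was 0.11 and 0.23. Between these, at 10 to 20 FPKM, it was 0.23 over 13 genes and 0.21 over 4215 others, so the sizes of the estimates lay further apart among the most expressed genes than below them.

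**Figure D4:**
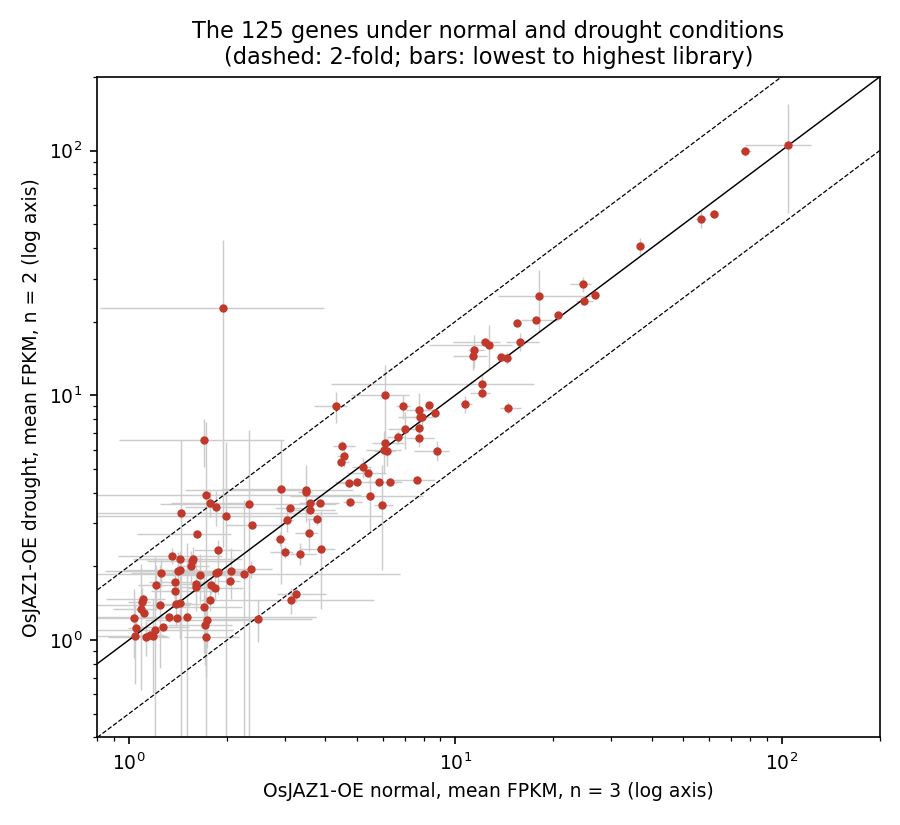
Mean FPKM of the 125 genes in OsJAZ1-OE drought (2 libraries) against OsJAZ1-OE normal (3 libraries), on log axes, with bars from the lowest to the highest library that stop at the frame. Of the 125 points 116 lie between the dashed 2-fold lines, and the point far above them at 22.7 FPKM is LOC_Os06g03650, whose fragment counts gave a log2 change of 0.01.

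The 125 genes lay on all 12 chromosomes, 59 on the plus and 66 on the minus strand. Positions are those of the deposited tables, and the sources used here name no genome build. Chromosome 2 had the most, 17, and chromosome 7 the fewest, 5. Relative to the genes at 1 FPKM in both OsJAZ1-OE groups, the density was lowest on chromosome 3 with 3.01 per 1000 and highest on chromosome 10 with 14.4 per 1000, followed by chromosome 11 with 11.1 per 1000. Chromosome 10 thus held 12% of the set (15 genes) and 5.17% of those expressed genes. The distribution over chromosomes was not tested.

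Within chromosome 10 the 15 genes spanned 6.14 to 22.5 Mb, with a median of 475 kb to the nearest other gene of the set, and 13 of them were within 1000 kb of another. Their OsJAZ1-OE means ran from 1.16 to 26.4 FPKM, with LOC_Os10g30240 at the top. The 12 genes of chromosome 11 spanned 0.214 to 25.1 Mb, with a median OsJAZ1-OE mean of 2.65 FPKM, and LOC_Os11g01690 was the highest of them. They lay closer together, with a median of 159 kb to the nearest other gene of the set. Of these, 9 were within 1000 kb of another and 5 within 100 kb. On chromosome 6 the median was 274 kb, and 11 of its 13 genes were within 1000 kb of another. The 8 genes of chromosome 3 spanned 1.42 to 30.8 Mb, with none within 1000 kb of another, and included LOC_Os03g43100 and LOC_Os03g18779.

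**Figure D5:**
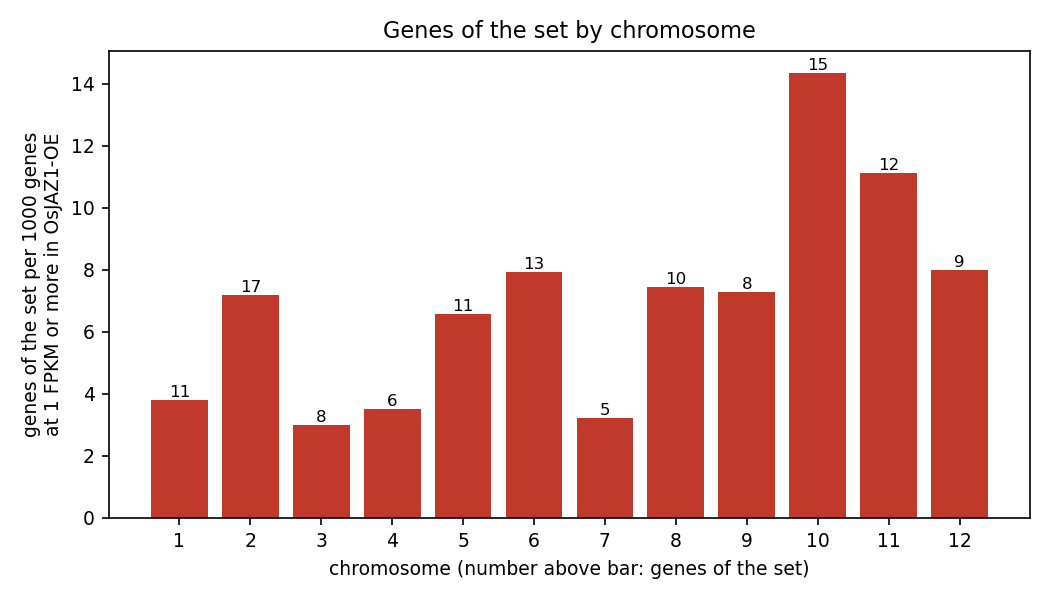
Genes of the set per 1000 genes at a mean of 1 FPKM or more in both OsJAZ1-OE groups, by chromosome, with the number of genes above each bar. Chromosome 10 (15 genes, 14.4 per 1000) and chromosome 11 (12 genes, 11.1 per 1000) stand highest, and chromosome 3 (8 genes, 3.01 per 1000) is lowest.

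At the median the nearest other gene of the set was 893 kb away, edge to edge. Of the set, 13 had another within 100 kb, in 6 groups, of which 5 were pairs and 1 held 3 genes, and the other 112 had none. No such share was worked out for other genes, so these counts do not say whether the set is clustered or scattered. With 50 kb as the distance 8 genes were close to another, with 250 kb 25 and with 1000 kb 66.

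The closest pair that did not overlap lay on chromosome 5. LOC_Os05g45160 (26218549 to 26222589, plus strand) and LOC_Os05g45170 (26223419 to 26224389, minus strand) were 0.83 kb apart. LOC_Os05g45160 was at 8.37, 8.43 and 8.11 FPKM in OsJAZ1-OE normal and 8.77 and 9.52 FPKM in OsJAZ1-OE drought, with 5.53 fragments over all of ZH11 against 7749.9 over OsJAZ1-OE. LOC_Os05g45170 was at 17.7 ± 2.59 FPKM (SD, n = 3) and 20.3 ± 0.347 FPKM (SD, n = 2). Both genes of the pair were thus steady, and their strands point toward each other.

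The group of 3 was on chromosome 11. LOC_Os11g31500 (18409159 to 18421525, minus strand) was at 2.42 to 3.03 FPKM in OsJAZ1-OE and LOC_Os11g31510 (18415412 to 18421525, plus strand), which lies within it on the opposite strand, at 0.994 to 1.63 FPKM. LOC_Os11g31630 (18493242 to 18498350), 71.7 kb further on, was at 1.79 to 2.75 FPKM. The sources used here do not say whether fragments were counted by strand, so the reads of the overlapping pair cannot be told apart. The same holds on chromosome 10 for LOC_Os10g32280 (1.49 to 5.19 FPKM on 20.04 fragments) and LOC_Os10g32290 (2.77 to 3.40 FPKM on 1510.0 fragments), which overlap on opposite strands.

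The remaining 3 pairs were looser. On chromosome 8, LOC_Os08g33550 (8.46 to 11.3 FPKM) and LOC_Os08g33580 (4.59 to 5.56 FPKM) were 13.1 kb apart, and LOC_Os08g10612 (4.34 to 5.59 FPKM, no fragment in ZH11) and Oryza_sativa_newGene_1832 (2.94 to 3.89 FPKM) were 88.9 kb apart. On chromosome 11, LOC_Os11g17954 (3.40 to 3.98 FPKM) and Oryza_sativa_newGene_434 (1.35 to 4.08 FPKM, no fragment in ZH11) were 64.2 kb apart. Oryza_sativa_newGene_434 went from 1.35 to 2.26 FPKM up to 3.17 and 4.08 FPKM, a log2 change of 0.90 that missed the threshold (adjusted p = 0.065, edgeR), while LOC_Os11g17954 had group means of 3.60 and 3.62 FPKM. In all, 11 genes of the set overlapped another gene ID, and in 3 of these, LOC_Os06g37340, LOC_Os09g08490 and Oryza_sativa_newGene_2028, the partner had a ZH11 mean of at least 1 FPKM.

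Genes next to the members were compared between the genotypes, since they were picked by position. Their values entered in 1 way: a neighbour that met the rule is itself a member and was left out. Members were left out of the background shares below as well. Within 5 gene IDs on each side there were 1208 such neighbours, of which 533 had enough counts (44.1%, against 44.6% of all gene IDs). Under normal conditions 12 were higher and 2 lower in OsJAZ1-OE, which is 2.63% of the 533. Of the 24739 tested genes that are not members 1.15% were called (0.905% higher, 0.243% lower). Under drought 15 were higher and 1 lower, which is 3.00% against 1.30% (1.08% higher, 0.218% lower). The median log2 difference of the neighbours was -4.9e-04 under normal conditions (quartiles -0.13 and 0.12) and -0.0068 under drought (quartiles -0.14 and 0.18). The drought count of 16 fell to 8 when ZH11 drought replicate 1 was left out and to 9 when OsJAZ1-OE drought replicate 1 was left out.

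Of these neighbours 10 were called in both conditions, 9 higher and 1 lower, each beside a different member, and 6 were the very next gene ID. The clearest was LOC_Os10g41838 on chromosome 10 at 22516025 to 22517963, 1.83 kb from the member LOC_Os10g41829 and on the same strand. It was at 0.164 to 0.566 FPKM in ZH11 and at 7.69 to 10.1 FPKM in OsJAZ1-OE, and its highest ZH11 value kept it out of the set. Its log2 difference was 4.53 (SE 0.16, adjusted p = 1.7e-08, edgeR) under normal conditions and 5.82 (SE 0.23, adjusted p = 7.3e-08, edgeR) under drought. LOC_Os06g15730, labelled expressed protein, lies 16.3 kb from LOC_Os06g15750. It was at 0.645 to 2.03 FPKM in ZH11 and 4.90 to 8.70 FPKM in OsJAZ1-OE, with log2 differences of 2.32 (SE 0.12) and 2.69 (SE 0.16). LOC_Os08g14190, beside the strongly expressed LOC_Os08g14195, was at 0.303 to 0.718 FPKM in ZH11 and at 2.12 to 4.16 FPKM in OsJAZ1-OE.

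The exception was LOC_Os05g45140, 5.87 kb from LOC_Os05g45160, which was lower in OsJAZ1-OE. It was at 1.02, 1.58 and 2.01 FPKM in ZH11 normal and 0.175, 1.05 and 0.186 FPKM in OsJAZ1-OE normal, and at 2.52 and 4.89 FPKM in ZH11 drought and 1.89 and 0.483 FPKM in OsJAZ1-OE drought. Under normal conditions the groups overlapped, since the second OsJAZ1-OE library (1.05 FPKM) was above the lowest ZH11 library. Its log2 difference was -1.80 (SE 0.29, adjusted p = 0.0053, edgeR) under normal conditions and -1.36 (SE 0.29, adjusted p = 0.029, edgeR) under drought. LOC_Os11g31540, on chromosome 11 near LOC_Os11g31510, was higher in OsJAZ1-OE, at 5.67 to 12.8 FPKM against 2.46 to 3.48 FPKM. The other 5 called in both conditions, LOC_Os01g47510, LOC_Os02g28180, LOC_Os04g13150, LOC_Os10g41350 and LOC_Os11g01700, were at no more than 0.133 FPKM in any ZH11 library and at 0.170 to 1.51 FPKM in OsJAZ1-OE. LOC_Os01g47510 is listed as an unclassified retrotransposon protein, and LOC_Os11g01700 overlaps the member LOC_Os11g01690.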

How the data were processed

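RNA-seq of rice shoots was measured in 10 libraries. Drought replicate 3 of either genotype, excluded by the study, was not analysed here. The expected counts deposited by the authors are estimated fragments per transcript, and the FPKM values deposited by the authors are scaled by transcript length and mapped fragments. The submitters' processing notes name TopHat2, Picard, SAMtools 0.1.18 and GATK. The quantifier, genome build and strand setting are not given in the sources used here. Both units were added up per gene ID over its transcripts with Python and pandas. Depth was 32396154 to 34027909 fragments per library, which limits the weak genes of the set, and spread between libraries limits the others. What separates replicates (cultures, pots or days) is not given, so p-values measure the spread between these libraries.

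The gene sums of the counts were rounded, and 24850 genes were kept by filterByExpr and scaled by TMM. Tests are edgeR quasi-likelihood tests (edgeR 4.0.16 in R 4.3.3) from a fit over the 10 libraries with a mean for each group. Adjustment was by Benjamini-Hochberg across every gene tested, and calls needed both an adjusted p under 0.05 and at least a 2-fold change (1 on the log2 scale). Intervals are 95% t intervals of that model. Members come from FPKM by the rule of the report, and the swapped rule gives the genes of ZH11. Distances are edge to edge.

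The genes named are OsJAZ1, members within 100 kb of another, the 12 highest members, members called under drought, the 3 genes on each side of each threshold, genes of the swapped rule and neighbours called in both conditions. Most others are said to be named after their values were seen. Also outside these lists are the marker genes, the highest gene of a chromosome, members beside named neighbours and members with an expressed overlapping partner. The members and lists were chosen with earlier results of these data known. Alternatives were DESeq2 1.42.0, limma 3.58.1 on log2(FPKM + 0.1), RLE size factors, other filters, other samples in the fit, a replicate block, no fold limit, other limits of the rule, other distances and neighbours, and each library left out. Demands on every library of the higher genotype were added after seeing the data. No sequence is printed and no gene function was assigned, since neither was given for these IDs.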

Additional observations from a re-analysis of the deposited data

How the results depend on the processing

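The number of genes in the set was 80 with 1 FPKM and a mean of 2 as limits, 68 with a mean of 2 and 204 with a mean of 0.5, and 118 to 131 with a library left out. For the swapped rule, which gave 8 genes, it was 5 with 0.25 FPKM, 3 with 1 FPKM and a mean of 2, 3 with a mean of 2, 31 with a mean of 0.5, and 6 to 11 with a library left out. With the demands added after seeing the data it was 4 (every library at 0.5 FPKM), 3 (every library at 1 FPKM) and 3 (10 fragments in each library). Within 50, 250 and 1000 kb of another gene of the set there were 8, 25 and 66 genes.

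Under drought 2 genes of the set were called, 2 to 3 with a library left out and 8 with no fold limit. The median log2 change over the tested genes of the set was -0.030 with at least 50 counts in every library of 1 group and 0.00 to 0.03 with a library left out. Among neighbours 35 (normal) and 34 (drought) were called with no fold limit, and 23 (normal) within 10 gene IDs. In drought the count was 10 with limma, 8 with only the groups compared and 8 to 16 with a library left out, and in normal conditions it was 12 to 15 with a library left out. The cause of these moves was not tested.

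The replicate numbers did not pair the libraries (correlations of same-numbered libraries -0.10 to 0.20). With the replicate number as a block, 2 genes of the set were called, and 16 (normal) and 15 (drought) neighbours. OsJAZ1 was called under every alternative, with log2 differences of 3.44 to 3.48 (normal) and 3.08 to 3.23 (drought). Counts of a few fragments limit the 14 genes that were not tested.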
